A study of Homo sapiens with 16 samples.

Results

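Malignant cells of the mouse mammary tumor models T22 and T127 were compared between tumors harvested after long-term treatment (20 days) and after short-term treatment (4 and 8 days), within each of the 4 malignant clusters that the authors named. Malign_0 and Malign_1 hold the T127 cells and Malign_2 and Malign_3 the T22 cells. For each cluster the unique molecular identifiers (UMIs, one per captured mRNA molecule) of its cells were summed in every pool, and the 8 long-term pools were set against the 4 short-term pools of the same model. This took in 13694 malignant cells out of 48824 cells counted once in all 16 pools. Malign_0 had 2809 long-term and 2515 short-term cells, Malign_1 1794 and 2363, Malign_2 1352 and 1736, and Malign_3 907 and 218.

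Both models are transplant lines derived from tumors of transgenic mice that express the lysophosphatidic acid receptor LPA1 in the mammary epithelium, and each model is a single line grown in female FVB mice that were 6 weeks old when obtained. Both are BRCA1/2 wild type. T22 is intrinsically sensitive and T127 intrinsically resistant to PARP inhibitors (PARPi). The 8 long-term pools hold T22 and T127 tumors, each grown as a single strain or co-transplanted with the other model, after 20 days of vehicle or of the PARPi olaparib (50 mg/kg daily). The 4 short-term T22 pools and the 4 short-term T127 pools hold single strain tumors of that model after 4 or 8 days of olaparib at the same dose or vehicle. Hashtag antibodies marked the tumors before they were mixed for capture, but the cells could not be traced back to single tumors here. Vehicle and olaparib cells are therefore mixed in every value below. Pools of a group may be repeat captures of the same mixed tumors, so the pools are not shown to be independent tumors. The p-values measure the spread between captures, and days of treatment, tumor age and size, day of capture, depth and the mixing of models in the long-term captures cannot be told apart.

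PARP1 and PARP2 bind breaks in DNA and help to repair them, and olaparib blocks them and traps them on DNA. Cells then rely on homologous recombination, in which BRCA1 and BRCA2 act, and efflux pumps such as the one encoded by Abcb1a carry olaparib out of cells. DNA that leaks into the cytosol of damaged cells can switch on type I interferons, whose target genes include Isg15 and Irf7. Proliferating cells pass through S phase, when DNA is copied, and G2 and M phase, when they divide.

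Cells of the long-term pools held fewer UMIs. The median number of UMIs per Malign_0 cell was 17486 to 22388 in the long-term pools against 32657 to 38687 in the short-term pools, a ratio of the means of 0.541, and the ratio was 0.646 in Malign_1, 0.627 in Malign_2 and 0.701 in Malign_3. The pools did not overlap in any cluster (two-sided exact permutation test over pools, p = 0.00404 in each cluster, the smallest p that this design allows). The summed counts behind each value ranged from 1113964 UMIs in the smallest Malign_3 pool to 25286890 UMIs in the largest Malign_0 pool. Long-term pools 1 to 3 shared cell barcodes, and each shared barcode was kept only at its deepest copy, which removed 111 malignant copies. Of the 4146 shared barcodes 33.1% carried the same cluster name in all their copies. Short-term pool 3 of T127 stood apart. Its counts in Malign_0 differed from those of the other short-term pools by a chi-square per degree of freedom of 15.1 to 40.8, against 3.47 to 10.3 among these. Without it, 967 genes were higher and 895 lower in Malign_0 and 841 and 1038 in Malign_1, by the call defined below.

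Markers of some other cell types were higher in long-term malignant cells and those of others lower. The 13 macrophage markers summed to 288 to 382 CPM (UMIs of a gene in 1000000 UMIs of the cluster) in the long-term pools of Malign_0 and to 64.4 to 75.2 CPM in the short-term pools. The ranges were 297 to 471 against 69.6 to 73.7 CPM in Malign_1, 375 to 585 against 146 to 243 CPM in Malign_2 and 427 to 1007 against 162 to 329 CPM in Malign_3. None of these markers was at 0 in either group. The 5 neutrophil markers lay at 28.1 to 155 CPM in long-term and 2.38 to 11.2 CPM in short-term Malign_0, and reached 2174 CPM in 1 long-term pool of Malign_2. The 4 erythroid globin genes summed to 1035 to 3585 CPM in long-term and 0.317 to 799 CPM in short-term Malign_2, while in Malign_0 the ranges of 814 to 2943 and 370 to 1681 CPM overlapped. Markers of T and NK cells (10 genes, at most 87.0 CPM), B cells (6 genes, at most 13.2 CPM), endothelium (8 genes, at most 47.0 CPM), adipocytes (4 genes, at most 2.07 CPM) and muscle (4 genes, at most 17.8 CPM) stayed low throughout. Those of T and NK cells had medians of 14.2 CPM in long-term and 1.31 CPM in short-term Malign_0 but 12.7 and 33.9 CPM in Malign_2, and those of endothelium 30.1 and 44.7 CPM in Malign_2. The 7 fibroblast and pericyte markers were at 143 to 178 CPM in long-term and 309 to 328 CPM in short-term Malign_0, and overlapped in Malign_2 at 8.15 to 20.4 against 18.9 to 19.9 CPM. Pdgfra, 1 of these 7, was at 295 CPM in short-term T127 malignant cells and 0.113 CPM in those of T22. In short-term T127 cells the sum is therefore largely that of a gene of the tumor cells and no measure of fibroblast RNA. Genes that mark the malignant cells of each model were chosen in the short-term pools. They held at least 100 CPM in their own model and at most 1 CPM in the other. Their short-term values in the other model are low by this choice, so a higher long-term value is no test of RNA from the other model. The 95 genes of T22 malignant cells had a median sum of 185 CPM in long-term and 17.2 CPM in short-term Malign_0, and the 45 genes of T127 malignant cells had 85.7 and 9.27 CPM in Malign_2. The part of these RNAs in the results below was not tested unless a value is given.

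**Figure D1:**
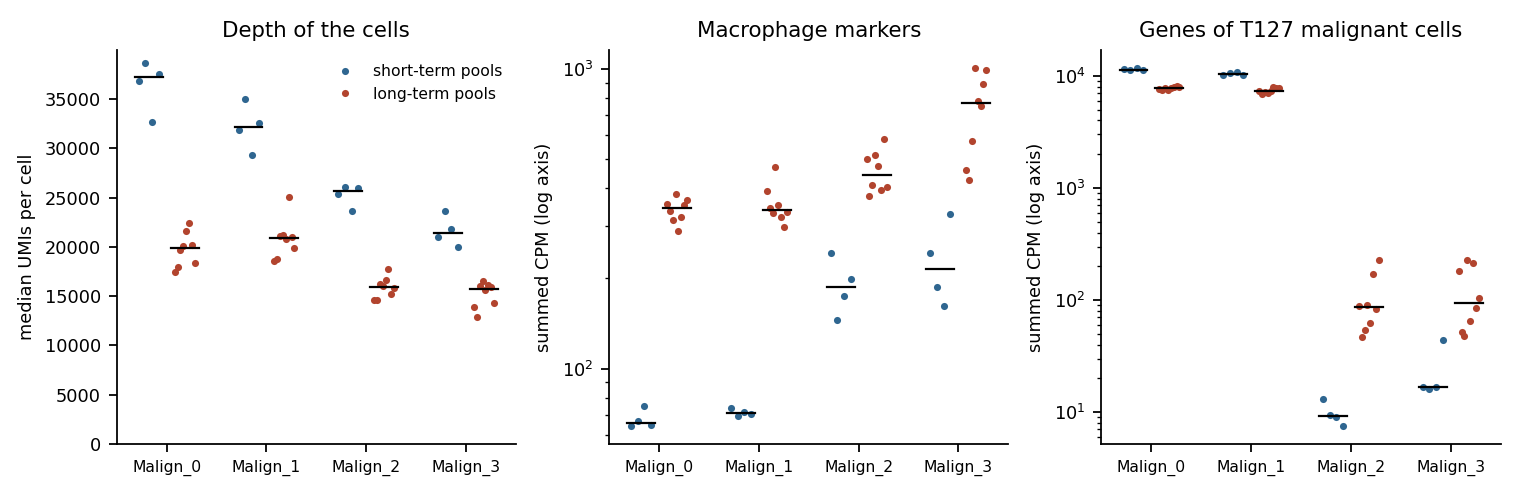
Median UMIs per cell (left), summed CPM of 13 macrophage markers (middle, log axis) and summed CPM of 45 genes of T127 malignant cells (right, log axis) in each pool of the 4 malignant clusters. Each point is a pool and each black line the median of the 8 long-term or 4 short-term pools. Long-term cells held fewer UMIs in every cluster, and the T127 genes lay at 46.8 to 226 CPM in long-term Malign_2 against 7.52 to 13.2 CPM in short-term Malign_2. The T127 genes were chosen for being at most 1 CPM in short-term T22 malignant cells, so the low short-term values there are no result.

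Many genes differed between the long-term and short-term pools in every cluster, and most of those with a value in the non-malignant cells of the same captures had the same sign there. A gene was called at a Benjamini-Hochberg adjusted p under 0.05 (edgeR quasi-likelihood test over all genes) and an absolute log2 fold change of at least 1. In Malign_0, 994 genes (8.83% of the 11251 tested) were higher and 897 (7.97%) lower in the long-term pools. In Malign_1, 854 of 10865 genes were higher (7.86%) and 1034 lower (9.52%). In Malign_2, 403 of 10566 genes were higher (3.81%) and 397 lower (3.76%), and in Malign_3, 416 of 9411 genes were higher (4.42%) and 677 lower (7.19%). With the adjusted p alone, 4248 genes were higher and 4449 lower in Malign_0. Most genes called with both limits had no overlap between long-term and short-term pools. These were 808 higher and 890 lower genes in Malign_0, 634 and 1000 in Malign_1, 287 and 391 in Malign_2, and 231 and 615 in Malign_3. The rule for the largest genes named below required it, so absence of overlap adds nothing to their calls. How often pools did not overlap over all genes tested is not given here. For list members and other genes below, absence of overlap is therefore a description and no evidence beyond the call.

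As a measure of what the captures share, the same ratio was taken in the 12 non-malignant clusters with at least 50 cells on both sides for T127 and in 14 such clusters for T22, and their median is called the non-malignant median of a gene. Droplets of non-malignant cells also hold free RNA of the tumor cells, and the make-up of these clusters differs between captures. Of the called genes with a non-malignant median in Malign_0, 697 of 760 higher genes (91.7%) and 522 of 540 lower genes (96.7%) had one of the same sign, and 298 and 186 had one past 1. Over all genes with a value, 5.32% of non-malignant medians were above 1 and 5.67% below -1. In Malign_2 the same sign was seen for 324 of 334 higher genes (97.0%) and 240 of 245 lower genes (98.0%). Called genes without a non-malignant median could not be assessed. After subtraction of the non-malignant median, 208 of 760 higher and 54 of 540 lower genes were still past 1 in Malign_0. These were 148 of 650 and 125 of 653 in Malign_1, 57 of 334 and 11 of 245 in Malign_2, and 86 of 349 and 38 of 538 in Malign_3. The non-malignant median is therefore printed for each called gene below where at least 3 clusters gave one.

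Fold changes below are log2 fold changes of long-term against short-term pools with their SE (n = 8 and 4 pools), on a scale (TMM) on which the median gene lies near 0. The SE was derived from the edgeR test, as the absolute log2 fold change divided by the square root of the F statistic. It is not a spread measured directly between the pools. Without this scaling, on library size alone, the median gene lay at -0.38, -0.35, -0.35 and -0.31 in Malign_0 to Malign_3. Log2 ratios of the CPM values therefore lie lower than the printed fold changes by about that much. They are smaller in size for increases and larger in size for decreases. On the scale of library size alone, 489 genes were higher and 2420 lower in Malign_0, 430 and 2293 in Malign_1, 152 and 1504 in Malign_2, and 166 and 1611 in Malign_3. Counts of called genes in a list are to be read against the shares of all genes tested given above. A count of list members that rests on p alone is to be read against the adjusted p alone. That limit was passed by 4248 higher and 4449 lower of 11251 genes in Malign_0, and by 4037 and 4215 of 10865 in Malign_1. In Malign_2 it was passed by 3645 and 3914 of 10566 and in Malign_3 by 2781 and 2850 of 9411, so most genes tested passed it. Where a list has 1 or 2 called genes, it is given as a count, and any member named from it stands as a single gene.

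**Figure D2:**
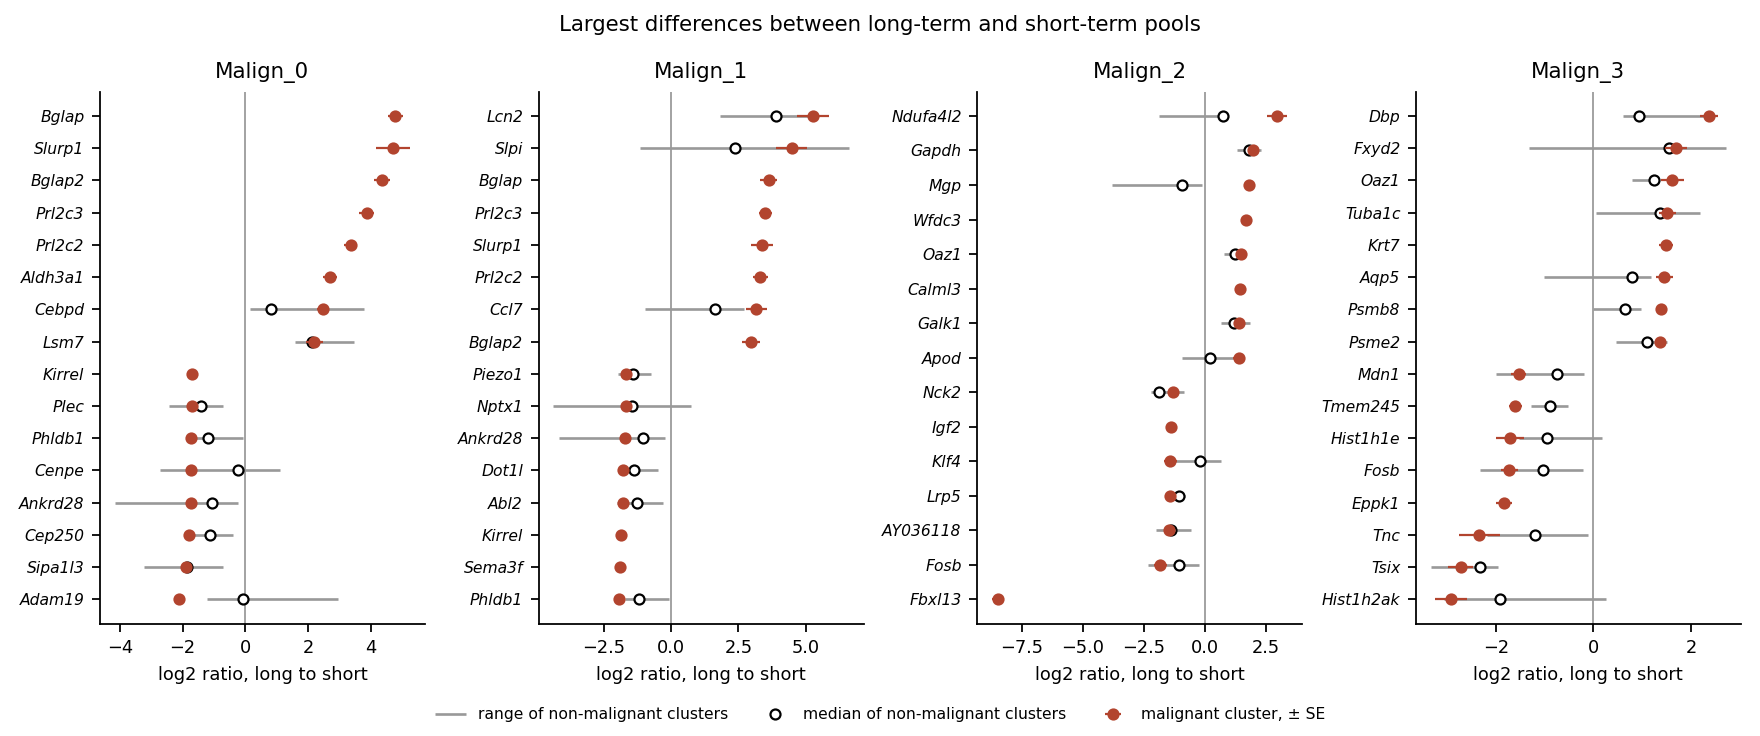
Log2 ratio of long-term to short-term pools for the genes with the largest changes by the rule for named genes, up to 8 higher and 8 lower per cluster. Filled points with bars are the fold change in the malignant cluster with its SE, open circles the median and grey lines the range over the non-malignant clusters of the same captures. Genes without an open circle had no non-malignant median. Lsm7 in Malign_0 and Gapdh in Malign_2 lie close to their non-malignant medians, whereas Adam19 in Malign_0 and Mgp in Malign_2 lie apart from theirs.

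Interferon-stimulated genes rose in part in all 4 clusters. Of the 30 genes listed, 13 of 29 tested rose in Malign_0, 8 of 29 in Malign_1, 15 of 28 in Malign_2 and 14 of 26 in Malign_3, and none fell. The median log2 fold change of the list was 0.71, 0.42, 1.41 and 1.23 in Malign_0 to Malign_3, against -0.02, -0.02, -0.04 and -0.03 over all genes tested. The non-malignant medians of the list were 0.37, 0.37, 0.93 and 0.94, that of Malign_1 lying close to the value in the malignant cells. Isg15, a ubiquitin-like protein joined to other proteins after interferon, was at 368 to 719.5 CPM (median 515) in the long-term pools and 100.4, 141, 171 and 149 CPM in the short-term pools of Malign_0. In Malign_2 it was at 179 to 471 CPM (median 262) in the long-term pools and 47.8, 46.1, 48.9 and 49.4 CPM in the short-term pools. The long-term pools lay above the short-term pools without overlap in all 4 clusters. The fold change was 2.29 ± 0.21 in Malign_0, 1.74 ± 0.22 in Malign_1, 2.94 ± 0.25 in Malign_2 and 3.04 ± 0.40 in Malign_3 (edgeR adjusted p = 8.9e-08, 2.7e-06, 3.4e-08 and 6.5e-06), beside non-malignant medians of 1.41 for the T127 captures and 2.06 for the T22 captures.

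Irf7, the transcription factor that amplifies type I interferon expression, was at 104 to 311 CPM (median 171) in the long-term pools and 51.9, 59.1, 61.9 and 63.5 CPM in the short-term pools of Malign_0 and 96.1 to 197 CPM (median 145) in the long-term pools and 24.8, 28.7, 15.7 and 47.9 CPM in the short-term pools of Malign_3. Neither cluster overlapped between long-term and short-term pools, with fold changes of 2.06 ± 0.33 and 2.61 ± 0.23 (edgeR adjusted p = 3.6e-05 and 1.6e-07) and non-malignant medians of 0.92 and 2.03. Ifi27l2a, an interferon-induced membrane protein gene, rose by 2.26 ± 0.34 in Malign_0 and 1.66 ± 0.24 in Malign_2 (edgeR adjusted p = 1.8e-05 and 1.1e-05), with non-malignant medians of 0.32 and 1.04. Xaf1, an interferon-induced inhibitor of the XIAP protein, rose by 1.54 ± 0.16, 2.06 ± 0.17 and 2.11 ± 0.21 in Malign_1, Malign_2 and Malign_3 (edgeR adjusted p = 4.4e-07, 3.4e-08 and 3.6e-07). Bst2, the antiviral protein tetherin, rose by 1.56 ± 0.21 in Malign_2 without overlap (edgeR adjusted p = 4.9e-06), while in Malign_0 the fold change of 1.07 ± 0.28 came with overlapping pools. The call of Bst2 in Malign_0 was lost without long-term pool 3 (0.93) or short-term pool 1 (0.92). Non-malignant medians were 1.16 and 0.66 for Xaf1 and Bst2 in the T127 captures and 1.90 and 0.95 for Xaf1 and Bst2 in the T22 captures.

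The height of this list depended on which long-term pools were taken. Summed over the list, the long-term pools of Malign_0 ranged from 1463 to 3254 CPM against 1025, 1190, 1339 and 1230 CPM in the short-term pools. In Malign_1 the long-term range was 995 to 2256 CPM and overlapped the short-term range of 858 to 1174 CPM. With long-term pools 5 to 8 alone, the median of the list in Malign_1 was -0.09, and the fold change of Irf7 there was 0.68 against 2.05 with pools 1 to 4 alone. The T22 clusters showed the opposite order, since Isg15 was at 2.42 with pools 1 to 4 and 3.34 with pools 5 to 8 in Malign_2 and at 2.21 and 3.56 in Malign_3. The genes of the list that are named here lay higher outside the cluster than in it, with the exception of Xaf1 in Malign_0. Isg15 was at 519 CPM in long-term Malign_0 and 634 CPM over all other cells of the same pools. When genes that are higher outside the cluster were left out, the median of the remaining genes of the list was -0.14 in Malign_3.

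Of the 14 genes of antigen presentation on MHC class I, none of 13 tested was called in Malign_0 or Malign_1, and 2 of 14 rose in Malign_2 and 3 of 13 in Malign_3, beside 3.81% and 4.42% of all genes tested. In Malign_0 and Malign_1, 10 and 9 of the 13 had an unadjusted and 9 and 9 an adjusted p under 0.05 in the edgeR test, and DESeq2 called 0 and 0. Psmb8, a catalytic subunit of the immunoproteasome that cuts peptides for MHC class I, was at 563 to 674 CPM (median 627) in the long-term pools and 291, 269, 284 and 314 CPM in the short-term pools of Malign_3. All 8 long-term pools lay above the short-term pools (1.39 ± 0.072, edgeR adjusted p = 1.6e-09, non-malignant median 0.64). Psmb9, its partner subunit, rose by 1.11 ± 0.088 and the class I heavy chain gene H2-D1 by 1.01 ± 0.10 in Malign_3 (edgeR adjusted p = 6.0e-08 and 4.7e-07). Psme2, which encodes a subunit of the PA28 proteasome activator, rose by 1.37 ± 0.074 there (edgeR adjusted p = 1.7e-09), with a non-malignant median of 1.09. In Malign_2, Psmb8 rose by 1.15 ± 0.070 and H2-M3, a class I molecule that presents formylated peptides, by 1.03 ± 0.12 (edgeR adjusted p = 1.6e-09 and 9.4e-07). The median over the list was 0.42, 0.32, 0.19 and 0.49 in Malign_0 to Malign_3, and on library size alone it was -0.01 in Malign_1 and -0.12 in Malign_2. With long-term pools 5 to 8 alone it was -0.18 in Malign_1. The call of H2-M3 was lost without long-term pool 4 (0.97) or short-term pool 2 or 3 (0.97 and 0.98), and that of H2-D1 without any of long-term pools 1, 2, 3 and 6 or short-term pool 3 (0.92 to 1.00). Non-malignant medians were 0.42, 0.69 and 0.43 for Psmb9, H2-D1 and H2-M3 in the T22 captures.

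Genes of cell division fell in part in the long-term pools of the T127 clusters. More of them were called in Malign_1 than in Malign_0, a difference that was not tested. Of 21 genes of G2 and M phase, 7 fell in Malign_0 and 16 in Malign_1, while 1 fell in Malign_2 and 2 in Malign_3, beside 7.97%, 9.52%, 3.76% and 7.19% of all genes tested, and none rose. The medians were -0.57, -1.66, -0.10 and -0.11 in Malign_0 to Malign_3, and the non-malignant medians of the list were 0.20 for the T127 captures and -0.05 for the T22 captures. Summed over the list, long-term Malign_1 ranged from 126 to 414 CPM and the short-term pools lay at 1074, 733, 1071 and 787 CPM. The groups did not overlap in Malign_0 or Malign_1 and overlapped in Malign_2 and Malign_3. In Malign_3 the sign of the median turned in the fit with a replicate block (0.11), with genes that are higher outside the cluster left out (0.21) and with long-term pools 1 to 4 alone (0.04). In Malign_2 it turned without the 5% of cells with the most UMIs (0.24), and without short-term pool 3 or pool 4 it lay at 0.03 and 0.00.

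Mki67, the proliferation marker Ki-67, fell in all 4 clusters. It was at 6.19 to 19.6 CPM (median 14.4) in the long-term pools and 105, 88.8, 96.0 and 87.6 CPM in the short-term pools of Malign_0. In Malign_2 it was at 48.4 to 98.0 CPM (median 73.4) in the long-term pools and 196, 212, 258 and 294 CPM in the short-term pools. The long-term and short-term pools did not overlap in any cluster, and the fold changes were -2.33 ± 0.15, -3.01 ± 0.19, -1.42 ± 0.13 and -1.79 ± 0.15 (edgeR adjusted p = 2.4e-09, 2.3e-09, 1.1e-07 and 1.0e-07). Its non-malignant medians were -1.10 and -1.01. It was the only gene of this list called in Malign_2. Top2a, the topoisomerase that untangles DNA before division, was at 10.8 to 45.0 CPM (median 28.5) in the long-term pools and 146, 85.9, 114 and 101 CPM in the short-term pools of Malign_1. It fell there without overlap (-1.66 ± 0.23, edgeR adjusted p = 8.5e-06), beside a non-malignant median of 0.21.

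Cenpf, a kinetochore protein, was at 6.48 to 39.4 CPM (median 18.7) in the long-term pools and 119, 79.8, 126.8 and 93.6 CPM in the short-term pools of Malign_1, where it fell with a log2 fold change of -2.11 ± 0.26 (edgeR adjusted p = 1.9e-06). In Malign_0 it fell with a log2 fold change of -1.36 ± 0.20 (edgeR adjusted p = 1.6e-05), and its non-malignant median was -0.03. Cenpe, the kinetochore motor that aligns chromosomes, fell with a log2 fold change of -1.74 ± 0.16 in Malign_0 and -2.44 ± 0.23 in Malign_1 (edgeR adjusted p = 6.6e-08 and 1.1e-07), with a non-malignant median of -0.24. Birc5, the survivin component of the chromosomal passenger complex, fell with a log2 fold change of -1.32 ± 0.21 in Malign_1 (edgeR adjusted p = 2.9e-05, non-malignant median 0.62). Hmmr, a spindle protein, fell with a log2 fold change of -1.20 ± 0.12 in Malign_0 (edgeR adjusted p = 1.5e-07, non-malignant median 0.36). The difference between the models was not tested for single genes of this list.

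Genes of S phase fell in part in the T127 clusters. Of 18 genes, 4 fell in Malign_0, 8 in Malign_1, 0 in Malign_2 and 2 in Malign_3, beside 7.97%, 9.52%, 3.76% and 7.19% of all genes tested, and none rose, with medians of -0.23, -0.96, 0.01 and -0.34. The median of Malign_2 was near 0 and changed sign under 14 alternatives, to -0.31 on library size alone. For Malign_2, the edgeR test gave 10 of the 18 genes at an unadjusted and 7 at an adjusted p under 0.05, and DESeq2 called 0. Rrm2, the ribonucleotide reductase subunit made in S phase, was at 2.78 to 11.9 CPM (median 8.92) in the long-term pools and 32.8, 21.7, 32.0 and 22.9 CPM in the short-term pools of Malign_1. It fell without overlap (-1.36 ± 0.20, edgeR adjusted p = 1.0e-05), beside a non-malignant median of 1.05. Mcm2, part of the helicase that opens DNA for copying, fell with a log2 fold change of -1.29 ± 0.13 in Malign_0 (edgeR adjusted p = 2.4e-07), and its non-malignant median was -0.90. Uhrf1, which carries DNA methylation through replication, fell with a log2 fold change of -1.40 ± 0.10 in Malign_0 and -1.16 ± 0.17 in Malign_3 (edgeR adjusted p = 5.9e-09 and 1.9e-05), with non-malignant medians of -1.09 and -0.89. E2f8, an E2F family repressor, fell with a log2 fold change of -1.37 ± 0.068 in Malign_0 (edgeR adjusted p = 2.2e-10). The non-malignant clusters had a median of -0.44 for E2f8 in the T127 captures.

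**Figure D3:**
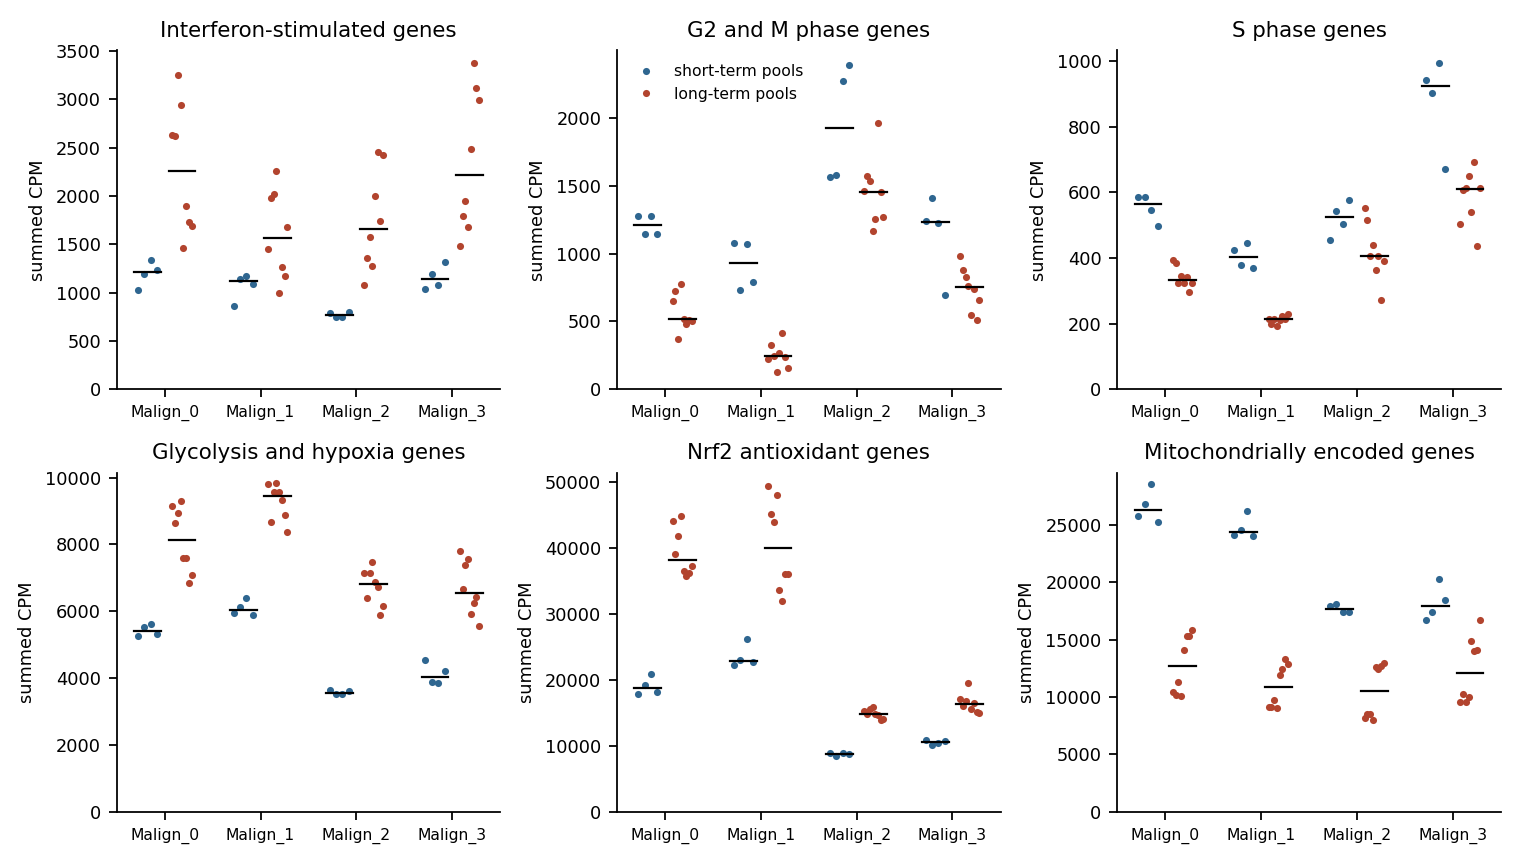
Summed CPM of 6 gene lists in each pool of the 4 malignant clusters. Each point is a pool and each black line the median of the 8 long-term or 4 short-term pools, and every axis starts at 0. In Malign_1 the G2 and M phase genes lay at 126 to 414 CPM in the long-term pools and at 733 to 1074 CPM in the short-term pools, while in Malign_2 the ranges overlapped.

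Genes of homologous recombination and the Fanconi pathway fell in part. Of 30 genes, 4 of 27 tested fell and 1 rose in Malign_0, 6 of 22 fell in Malign_1, 1 of 27 rose in Malign_2 and 3 of 19 fell in Malign_3. Over all genes tested 7.97%, 9.52%, 3.76% and 7.19% fell, and 8.83% rose in Malign_0 and 3.81% in Malign_2. At least 1 of the 4 genes that fell in Malign_0 lost its call without long-term pool 1, 3, 6 or 8 or short-term pool 1 (-0.85 to -0.97). The list had medians of -0.36, -0.53, -0.31 and -0.52. Brca1, which brings the recombination machinery to breaks, was at 0.433 to 3.24 CPM (median 1.36) in the long-term pools and 8.73, 5.97, 9.33 and 6.78 CPM in the short-term pools of Malign_1. Its partner Bard1 was at 0 to 2.43 CPM (median 0.998) in the long-term pools and 8.73, 5.67, 8.06 and 6.68 CPM in the short-term pools of Malign_1. Neither gene overlapped between the groups, and they fell with log2 fold changes of -1.84 ± 0.25 and -2.39 ± 0.28 (edgeR adjusted p = 6.7e-06 and 1.0e-06), beside a non-malignant median of -0.51 for Brca1. Brip1, the helicase that binds BRCA1, fell with a log2 fold change of -2.47 ± 0.27 in Malign_1 and Brca2 with -1.27 ± 0.21 (edgeR adjusted p = 6.1e-07 and 3.5e-05), with non-malignant medians of -0.58 and -0.51. All 4 genes lay under 10 CPM in every pool of Malign_1. In Malign_3, Bard1 fell with a log2 fold change of -1.46 ± 0.23 and Rad54l, a motor protein of recombination, with -1.11 ± 0.22 (edgeR adjusted p = 3.7e-05 and 3.2e-04). Fancl, the ubiquitin ligase of the Fanconi core complex, rose by 1.02 ± 0.11 in Malign_2 (edgeR adjusted p = 3.3e-07) and by 1.06 ± 0.16 with overlapping pools in Malign_0 (edgeR adjusted p = 2.0e-05). Fancl lay close to the limit, and its call was lost without short-term pool 4 in Malign_0 (0.99) and without long-term pool 1, 3 or 4 in Malign_2 (0.98 to 1.00), as was that of Rad54l without short-term pool 3 (-0.98). Non-malignant medians were 0.86 for Fancl in the T127 captures and -0.87 and 0.52 for Bard1 and Fancl in the T22 captures.

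Among 20 genes of PARP enzymes, shieldin and drug efflux, 3 rose and 2 fell of 19 tested in Malign_0, 2 rose of 19 in Malign_1 and none was called in Malign_2 or Malign_3. Beside these counts, 8.83% of all genes tested rose and 7.97% fell in Malign_0, and 7.86% rose in Malign_1. Without short-term pool 3, 1 rose and 1 fell in Malign_0, and 2 rose and 1 fell in Malign_1. The list had medians of -0.18, -0.28, 0.00 and -0.47, of which that of Malign_2 was -0.31 on library size alone. For Malign_2 and Malign_3, 15 of 19 and 13 of 16 genes had an unadjusted p under 0.05 in the edgeR test, and DESeq2 called 0 and 0. At an adjusted p under 0.05 there were 15 and 11, which missed the call by the fold limit alone. Parp1, the main target of olaparib, was at 3.09 to 7.25 CPM (median 5.21) in the long-term pools and 16.9, 16.4, 17.4 and 14.4 CPM in the short-term pools of Malign_0. The long-term pools lay below the short-term pools without overlap and the gene fell with a log2 fold change of -1.26 ± 0.13 (edgeR adjusted p = 2.1e-07), while its non-malignant median was 0.03. In Malign_1 the fold change of -0.999 ± 0.11 lay at the limit of 1 and was not called, and in Malign_2 and Malign_3 it was -0.36 ± 0.12 and -0.42 ± 0.20. Parp1 was lower in T127 cells than around them, at 5.27 CPM in long-term Malign_0 against 31.1 CPM in all other cells of those pools. Parp2 rose by 1.01 ± 0.090 in Malign_0 and 1.06 ± 0.093 in Malign_1 (edgeR adjusted p = 6.2e-08 and 4.9e-08), with a non-malignant median of 1.03. Tnks, which encodes tankyrase, fell with a log2 fold change of -1.0002 ± 0.070 in Malign_0 (edgeR adjusted p = 4.8e-09, non-malignant median -0.60). Parp2 and Tnks in Malign_0 lay at the limit, and the calls were lost without any of long-term pools 1 to 4 or short-term pool 2 or 3 for Parp2 (0.94 to 1.00) and without long-term pool 1, 2, 3, 4 or 8 or short-term pool 3 for Tnks (-0.95 at the smallest).

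Abcb1a, which encodes the P-glycoprotein that exports olaparib, rose in both T127 clusters. It was at 41.3 to 62.1 CPM (median 46.8) in the long-term pools and 26.1, 24.5, 25.0 and 24.2 CPM in the short-term pools of Malign_0. In Malign_1 it was at 48.8 to 78.3 CPM (median 62.3) in the long-term pools and 28.3, 32.0, 32.5 and 31.8 CPM in the short-term pools. The groups did not overlap in either cluster, and the fold changes were 1.33 ± 0.089 and 1.35 ± 0.098 (edgeR adjusted p = 3.2e-09 and 6.9e-09), beside a non-malignant median of -0.72 (range -1.15 to 0.12) over 5 clusters. With library size alone the fold changes were 0.96, which is under the limit, and 1.02. Taken alone, long-term pools 1 to 4 gave 1.21 and 1.27 and pools 5 to 8 gave 1.42 and 1.45. In the T22 clusters Abcb1a stayed at or under 2.54 CPM in every pool and was too low to be tested. Abcb1b, the other mouse gene for P-glycoprotein, was not called, with 0.75 ± 0.10, 0.77 ± 0.096 and 0.13 ± 0.22 in Malign_0, Malign_1 and Malign_2 and a non-malignant median of 0.66 for the T127 captures, and it was too low to be tested in Malign_3.

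Lpar1, the gene of the receptor whose transgene started both tumor models, fell in Malign_1 and rose in Malign_2 and Malign_3. It was at 12.9 to 18.4 CPM (median 15.7) in the long-term pools and 39.2, 40.8, 43.5 and 41.4 CPM in the short-term pools of Malign_1. In Malign_2 it was at 10.5 to 83.0 CPM (median 42.7) in the long-term pools and 5.02, 8.39, 17.9 and 5.42 CPM in the short-term pools. The groups were apart in Malign_1, where it fell with a log2 fold change of -1.08 ± 0.067 (edgeR adjusted p = 1.6e-09). They overlapped in Malign_2 and Malign_3, where it rose by 2.53 ± 0.40 and 1.55 ± 0.28 (edgeR adjusted p = 3.3e-05 and 1.4e-04). In Malign_0 the groups were apart and the fold change was -0.60 ± 0.075, which is under the limit. The non-malignant median for the T22 captures was 0.04. Whether transcripts of the transgene are counted under Lpar1 is not given in the sources used here, and the difference between T127 and T22 was not tested for this gene.

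**Figure D4:**
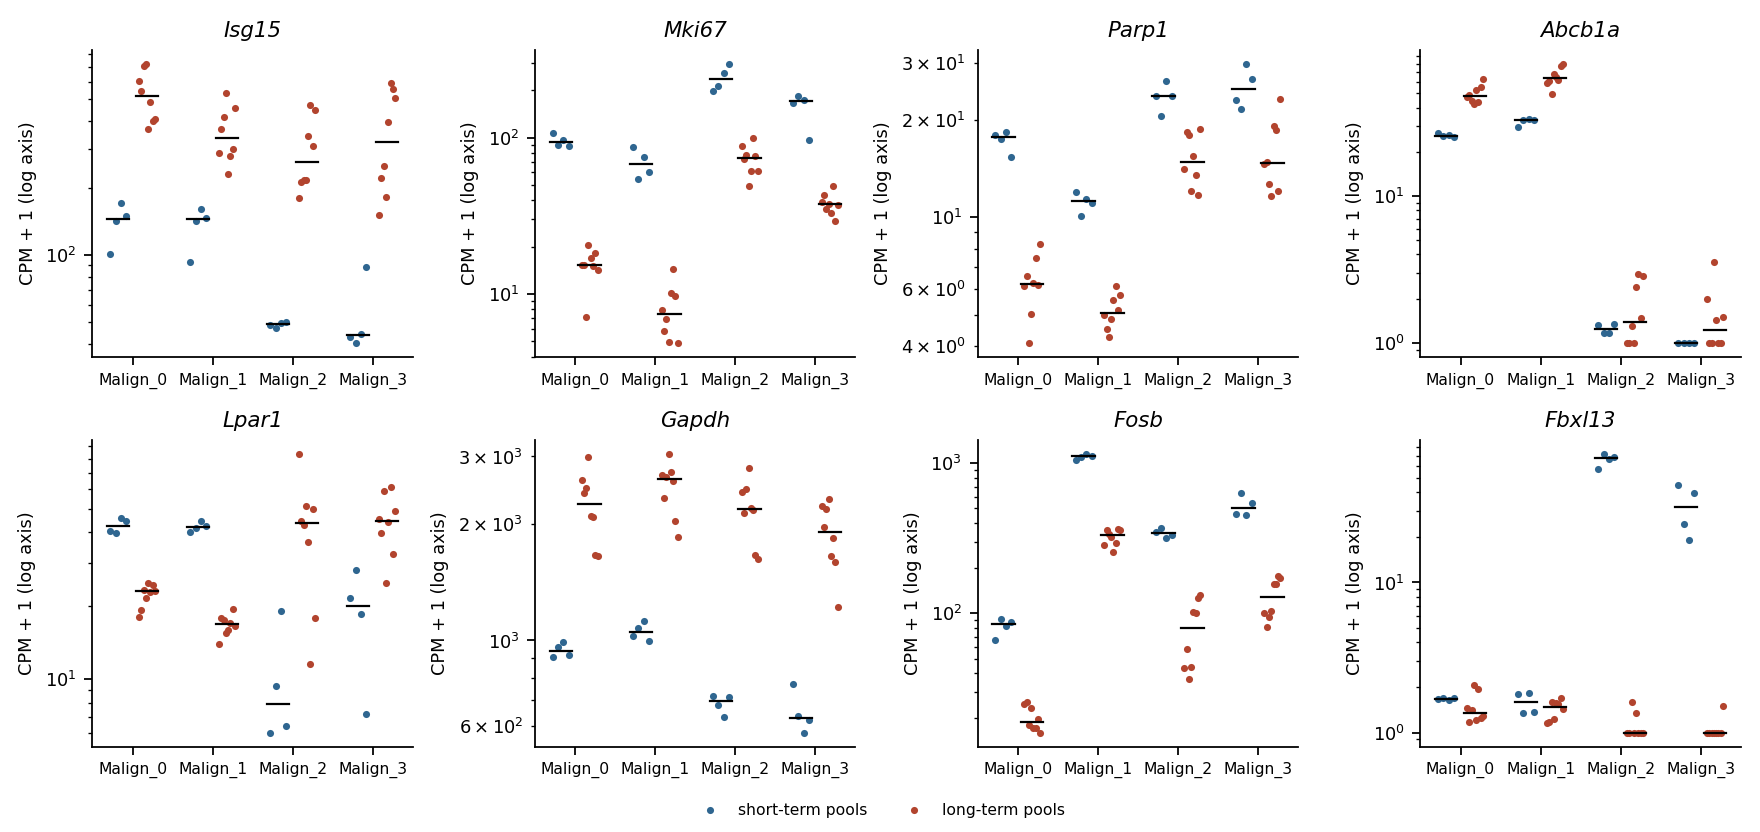
CPM of 8 genes in each pool of the 4 malignant clusters, drawn as CPM + 1 on log axes. Each point is a pool and each black line the median of the 8 long-term or 4 short-term pools. Abcb1a was higher and Parp1 lower in the long-term pools of Malign_0 without overlap, and Fbxl13 lay at 0 to 0.604 CPM in long-term Malign_2 against 55.6 to 70.9 CPM in short-term Malign_2.

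Genes of glycolysis and the hypoxia response rose in part in all 4 clusters, and their medians were also above 0 in the non-malignant cells of the same captures. Of 27 genes tested in each cluster, 11 rose in Malign_0, 12 in Malign_1, 12 in Malign_2 and 6 in Malign_3, and 1 fell, in Malign_1. The medians were 0.87, 0.85, 0.97 and 0.64, beside non-malignant medians of the list of 0.56 for the T127 and 0.88 for the T22 captures. Gapdh, the glycolytic enzyme often used as a reference gene, was at 1624 to 2803 CPM (median 2188) in the long-term pools and 718, 679, 633 and 714 CPM in the short-term pools of Malign_2. It rose without overlap in all 4 clusters, by 1.63 ± 0.16, 1.57 ± 0.13, 1.99 ± 0.13 and 1.81 ± 0.15 (edgeR adjusted p = 1.3e-07, 2.6e-08, 3.6e-09 and 1.1e-07), with non-malignant medians of 1.24 and 1.83. Near-identical processed copies of Gapdh in the genome make its counts uncertain. Aldoa, the aldolase of glycolysis, rose by 1.15 ± 0.083, 1.15 ± 0.070, 1.40 ± 0.060 and 1.26 ± 0.14 (edgeR adjusted p = 6.1e-09, 1.4e-09, 1.5e-10 and 1.0e-06), with non-malignant medians of 0.69 and 1.29.

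Ldha, which turns pyruvate into lactate, was at 850.5 to 1184 CPM (median 1028) in the long-term pools and 580.1, 612, 581 and 589.5 CPM in the short-term pools of Malign_0. It rose there without overlap (1.19 ± 0.11, edgeR adjusted p = 5.8e-08), beside a non-malignant median of 0.42. Bnip3, a hypoxia-induced mitophagy receptor, rose by 1.50 ± 0.12 in Malign_0 and 1.87 ± 0.29 in Malign_3 (edgeR adjusted p = 2.8e-08 and 3.9e-05), with non-malignant medians of 1.13 and 1.23. Vegfa, the angiogenic growth factor that hypoxia induces, was the member that fell in Malign_1 (-1.01 ± 0.074, edgeR adjusted p = 7.5e-09), and its non-malignant median was -1.30. Ndufa4l2, a hypoxia-induced mitochondrial protein outside this list, was at 71.9 to 364 CPM (median 150.0) in the long-term pools and 19.9, 32.9, 35.0 and 27.5 CPM in the short-term pools of Malign_2. It rose there without overlap (2.98 ± 0.42, edgeR adjusted p = 8.2e-06), with a non-malignant median of 0.76, and its fold change was 2.00 with long-term pools 1 to 4 and 3.59 with pools 5 to 8. The call of Vegfa was lost without long-term pool 1, 4, 6 or 8 or short-term pool 2 (-0.97 at the smallest).

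Of 18 Nrf2 antioxidant genes, which protect cells from oxidants and electrophiles, 5 of 17 tested rose in Malign_0, 5 of 17 in Malign_1, 3 of 16 in Malign_2 and 5 of 17 in Malign_3, beside 8.83%, 7.86%, 3.81% and 4.42% of all genes tested, and none fell. Without short-term pool 3 of T127, 5 rose and 1 fell in Malign_0. The medians were 0.57, 0.44, 0.46 and 0.35, with non-malignant medians of 0.31, 0.31, 0.36 and 0.34. Fth1, the ferritin heavy chain that stores iron, was at 28572 to 37925 CPM (median 30982) in the long-term pools and 12453, 13637, 14845 and 12832 CPM in the short-term pools of Malign_0. Its groups did not overlap in any cluster, and it rose by 1.64 ± 0.10, 1.27 ± 0.17, 1.21 ± 0.058 and 1.02 ± 0.10 (edgeR adjusted p = 2.0e-09, 3.8e-06, 3.9e-10 and 4.3e-07), beside non-malignant medians of 0.86 and 1.11. Nqo1, the quinone reductase most used as an Nrf2 target, rose by 1.58 ± 0.17 in Malign_0 and 1.27 ± 0.16 in Malign_1 (edgeR adjusted p = 4.4e-07 and 1.8e-06). Gsta4, a glutathione transferase for lipid aldehydes, rose by 1.30 ± 0.077 in Malign_2 and 1.23 ± 0.075 in Malign_3 (edgeR adjusted p = 1.4e-09 and 5.0e-09). Prdx1, a peroxidase, rose by 1.44 ± 0.11 in Malign_0 and 1.29 ± 0.11 in Malign_2 (edgeR adjusted p = 9.0e-09 and 5.1e-08), and its non-malignant medians were 1.11 and 1.07. In Malign_3 the call of Fth1 was lost without long-term pool 4 (0.94) or short-term pool 2 (0.98).

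Of the genes of cholesterol synthesis, 4 of 17 tested rose in Malign_0 and the same 4 of 16 in Malign_1, while none of 19 was called in Malign_2 and 1 rose and 1 fell of 19 in Malign_3. Among all genes tested, 8.83% rose in Malign_0 and 7.86% in Malign_1, and 4.42% rose and 7.19% fell in Malign_3. For Malign_2, 11 of 19 genes had an unadjusted and 11 an adjusted p under 0.05 in the edgeR test, and DESeq2 called 0. The medians were 0.26, 0.20, -0.23 and -0.01, and those of Malign_0 and Malign_1 turned to -0.11 and -0.13 on library size alone. Fdps, the farnesyl diphosphate synthase, was at 47.4 to 64.5 CPM (median 63.2) in the long-term pools and 25.3, 24.0, 26.8 and 27.5 CPM in the short-term pools of Malign_0. The groups did not overlap, and it rose by 1.58 ± 0.083 in Malign_0 and 1.33 ± 0.11 in Malign_1 (edgeR adjusted p = 3.3e-10 and 4.0e-08), beside a non-malignant median of 0.48. Cyp51, the lanosterol demethylase, rose by 1.02 ± 0.15 in Malign_0 (edgeR adjusted p = 1.8e-05), with a non-malignant median of -0.54. Fdft1, the squalene synthase, rose by 1.18 ± 0.075 and Sc5d, a sterol desaturase, by 1.23 ± 0.11 (edgeR adjusted p = 2.1e-09 and 4.9e-08), with non-malignant medians of 0.71 and 0.67. In Malign_3, Fdps rose by 1.02 ± 0.12 and Srebf2, the transcription factor that drives the pathway, fell with a log2 fold change of -1.06 ± 0.14 (edgeR adjusted p = 2.3e-06 and 7.1e-06, non-malignant median of Srebf2 -1.18). The calls of Cyp51 in Malign_0 and Fdps in Malign_3 were lost without long-term pool 6, 7 or 8 or short-term pool 2 (0.95 to 0.99) and without long-term pool 6 or 8 or short-term pool 2 (0.92 to 0.99). In Malign_1 the call of Cyp51 was lost without long-term pool 3 or 7 or short-term pool 1 or 2 (0.83 to 0.99). The non-malignant clusters had a median of 0.62 for Fdps in the T22 captures.

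The largest increases in the T127 clusters, among genes of at least 50 CPM without overlap that lay higher in the cluster than outside it, included Bglap, Slurp1, Prl2c2 and Prl2c3. Bglap, which encodes osteocalcin of bone matrix, was at 74.5 to 165 CPM (median 108) in the long-term pools and 4.51, 5.03, 4.59 and 5.88 CPM in the short-term pools of Malign_0. Slurp1, a small secreted protein of epithelia, was at 177 to 903 CPM (median 394) in the long-term pools and 22.8, 23.1, 16.3 and 28.8 CPM in the short-term pools of Malign_0. Both were apart between the groups, and they rose by 4.79 ± 0.25 and 4.71 ± 0.55 in Malign_0 and 3.62 ± 0.31 and 3.37 ± 0.40 in Malign_1 (edgeR adjusted p = 3.0e-10, 1.1e-06, 4.4e-08 and 1.4e-06). Bglap2, a near-identical neighbor of Bglap, rose by 4.37 ± 0.26 in Malign_0 and 2.96 ± 0.33 in Malign_1 (edgeR adjusted p = 1.1e-09 and 6.2e-07). The proliferin genes Prl2c2 and Prl2c3, placental growth factors of the prolactin family, rose by 3.37 ± 0.21 and 3.87 ± 0.24 in Malign_0 and 3.32 ± 0.28 and 3.50 ± 0.23 in Malign_1 (edgeR adjusted p = 1.3e-09, 1.3e-09, 3.4e-08 and 3.1e-09). Reads of Bglap and Bglap2, and of Prl2c2 and Prl2c3, cannot be told apart with certainty. None of these genes had a non-malignant median, and each was higher in Malign_0 than over all other cells of the same long-term pools, with Prl2c3 at 342 against 47.5 CPM.

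Lcn2, the iron-binding lipocalin of inflamed epithelia and neutrophils, was at 39.7 to 328 CPM (median 205) in the long-term pools and 5.82, 3.62, 8.72 and 7.94 CPM in the short-term pools of Malign_1. Slpi, an inhibitor of neutrophil elastase, was at 105 to 799.6 CPM (median 397) in the long-term pools and 22.4, 12.3, 23.5 and 36.9 CPM in the short-term pools of Malign_1. Neither overlapped, and they rose by 5.27 ± 0.60 and 4.49 ± 0.58 (edgeR adjusted p = 8.1e-07 and 3.1e-06), with non-malignant medians of 3.91 and 2.39. Lcn2 also rose by 6.08 ± 0.29 in Malign_0 (edgeR adjusted p = 1.5e-10), where its level of 87.2 CPM lay under the 223 CPM of all other cells of the long-term pools. Cebpd, a transcription factor of the acute phase response, was at 281 to 516 CPM (median 374) in the long-term pools and 70.1, 90.7, 105 and 103 CPM in the short-term pools of Malign_0. It rose without overlap (2.48 ± 0.20, edgeR adjusted p = 2.5e-08), beside a non-malignant median of 0.83 (range 0.17 to 3.80). Aldh3a1, an aldehyde dehydrogenase of epithelia, rose by 2.71 ± 0.23 in Malign_0 (edgeR adjusted p = 3.7e-08). Lsm7, part of a ring complex that binds RNA, rose by 2.20 ± 0.27 there (edgeR adjusted p = 1.6e-06), as in the non-malignant cells with a median of 2.11.

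The largest decreases in Malign_0 included Adam19, a membrane protease that releases growth factors, at 9.28 to 20.9 CPM (median 17.5) in the long-term pools and 103, 92.0, 95.5 and 93.3 CPM in the short-term pools. The gene fell without overlap (-2.13 ± 0.12, edgeR adjusted p = 5.0e-10), beside a non-malignant median of -0.09 (range -1.23 to 2.95). Sipa1l3 (-1.88 ± 0.071), Cep250 of the centrosome (-1.80 ± 0.080), Ankrd28 (-1.75 ± 0.078), Plec, the cytoskeletal linker plectin (-1.71 ± 0.059), Phldb1 (-1.73 ± 0.086) and the adhesion molecule gene Kirrel (-1.70 ± 0.067) fell as well (edgeR adjusted p from 3.0e-11 to 2.2e-10). Their non-malignant medians were nearest for Sipa1l3 (-1.86) and Plec (-1.42) and smaller for Cep250 (-1.14), Ankrd28 (-1.05) and Phldb1 (-1.18). In Malign_1 the largest decreases were in Phldb1 (-1.94 ± 0.078), the semaphorin Sema3f (-1.88 ± 0.089), Kirrel (-1.87 ± 0.083), the kinase gene Abl2 (-1.78 ± 0.090), the histone methyltransferase gene Dot1l (-1.77 ± 0.084), Ankrd28 (-1.72 ± 0.073), Nptx1 (-1.68 ± 0.11) and the mechanosensitive channel gene Piezo1 (-1.67 ± 0.094), with edgeR adjusted p from 5.0e-11 to 2.8e-09. None of these genes overlapped between long-term and short-term pools, as the rule for the largest genes required. Non-malignant medians were -1.27, -1.37, -1.45 and -1.41 for Abl2, Dot1l, Nptx1 and Piezo1 in the T127 captures.

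Several chemokines and other ligands rose in the long-term pools, and those called in Malign_0, Malign_2 and Malign_3 lay higher outside the cluster than in it. Of 19 ligand genes, 4 of 16 tested rose in Malign_0, 4 of 17 rose and 1 fell in Malign_1, 3 of 15 rose in Malign_2 and 3 of 14 in Malign_3, with medians of 0.48, 0.49, 0.29 and 0.17, the last 2 of which turned to -0.02 and -0.11 on library size alone. Among all genes tested, 8.83%, 7.86%, 3.81% and 4.42% rose in Malign_0 to Malign_3, and 9.52% fell in Malign_1. Ccl7, a monocyte chemoattractant, was at 51.5 to 357 CPM (median 232) in the long-term pools and 25.2, 48.8, 22.95 and 28.5 CPM in the short-term pools of Malign_1. It rose without overlap (3.16 ± 0.39, edgeR adjusted p = 2.1e-06, non-malignant median 1.64), and its level of 244 CPM in long-term Malign_1 lay near the 211 CPM of all other cells. It also rose by 2.83 ± 0.40 in Malign_0 and by 1.95 ± 0.30 with overlapping pools in Malign_2 (edgeR adjusted p = 8.2e-06 and 2.0e-05). In Malign_3 it had 173 UMIs in the long-term pools and 0 in the short-term pools, so it was at least 19.2-fold higher when 3 counts over the group are taken as the floor. Ccl2, another monocyte chemoattractant, rose with overlapping pools in Malign_0 and Malign_1 (1.63 ± 0.42 and 1.93 ± 0.38, edgeR adjusted p = 0.002 and 2.2e-04). Cxcl2, a neutrophil chemoattractant, was at 20.3 to 159 CPM (median 102) in the long-term pools and 11.6, 3.17, 8.96 and 4.28 CPM in the short-term pools of Malign_2, where it rose by 4.21 ± 0.46 (edgeR adjusted p = 5.3e-07, non-malignant median 1.71), and at 1683 CPM in the other cells of the long-term pools. Non-malignant medians were 0.48 for Ccl2 in the T127 captures and 2.68 for Ccl7 in the T22 captures.

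Matrix genes were called in both directions in all 4 clusters, and contractile genes in both directions in the T127 clusters. Of 27 collagen and matrix genes, 7 of 23 tested rose and 4 fell in Malign_0, 3 of 21 rose and 5 fell in Malign_1, 3 of 19 rose and 2 fell in Malign_2, and 4 of 14 rose and 1 fell in Malign_3. Among all genes tested, 8.83%, 7.86%, 3.81% and 4.42% rose and 7.97%, 9.52%, 3.76% and 7.19% fell in Malign_0 to Malign_3. Without short-term pool 3 of T127, 5 rose and 5 fell of 22 in Malign_1. In Malign_3 the calls of Col3a1 and Timp1, which rose, were both lost without short-term pool 3 of T22 (edgeR adjusted p = 0.052 and 0.060). That of Col3a1 was also lost without short-term pool 2, and that of Timp1 without long-term pool 4 or short-term pool 1. The medians were 0.20, -0.31, -0.41 and -0.16, that of Malign_0 turned to -0.17 on library size alone, and the non-malignant medians were 0.96 for the T127 and -0.20 for the T22 captures. Col4a1, a chain of basement membrane collagen, was at 40.2 to 59.5 CPM (median 52.7) in the long-term pools and 145, 162, 157 and 147 CPM in the short-term pools of Malign_0. Col18a1, another basement membrane collagen, was at 138 to 240.4 CPM (median 189) in the long-term pools and 642, 663, 719 and 667 CPM in the short-term pools of Malign_1. Both were apart between the groups, and they fell with log2 fold changes of -1.20 ± 0.083 and -1.53 ± 0.12 (edgeR adjusted p = 4.5e-09 and 1.7e-08), beside non-malignant medians of 1.00 and -0.58. Col4a2, the partner chain of Col4a1, fell with a log2 fold change of -1.25 ± 0.14 in Malign_0 and -1.38 ± 0.18 in Malign_1 (edgeR adjusted p = 7.2e-07 and 3.9e-06, non-malignant median 1.18). Dcn, the small proteoglycan decorin, rose by 1.11 ± 0.078 in Malign_0 (edgeR adjusted p = 4.8e-09), while in Malign_1 the fold change was 0.53 ± 0.095. Tnc, the matrix protein tenascin-C, fell with a log2 fold change of -2.34 ± 0.41 in Malign_3 (edgeR adjusted p = 1.3e-04, non-malignant median -1.20), where its short-term pools spread from 24.4 to 215 CPM. Without short-term pool 2 the fold change of Tnc was -1.40. The non-malignant clusters had a median of 0.96 for Dcn in the T127 captures.

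Of 14 contractile genes, 2 of 7 tested rose and 2 fell in Malign_0, 3 of 7 rose and 2 fell in Malign_1, and none was called of 12 in Malign_2 and 8 in Malign_3. Among all genes tested, 8.83% rose and 7.97% fell in Malign_0, and 7.86% rose and 9.52% fell in Malign_1. For Malign_2 and Malign_3, 10 and 2 of the contractile genes had an unadjusted and 10 and 2 an adjusted p under 0.05 in the edgeR test, and DESeq2 called 0 and 0. The medians were 0.20, 0.20, 0.19 and -0.07, and those of Malign_0, Malign_1 and Malign_2 turned to -0.17, -0.12 and -0.12 on library size alone. Those of Malign_0 and Malign_1 turned to between -0.31 and -0.26, and between -0.59 and -0.19, without any 1 of 5 long-term pools (1, 3, 5, 6 or 8 in Malign_0 and 2, 3, 4, 5 or 8 in Malign_1). Cald1, which encodes the actin-binding caldesmon, was at 20.4 to 32.3 CPM (median 27.4) in the long-term pools and 85.6, 72.4, 77.4 and 86.5 CPM in the short-term pools of Malign_0. Tpm2, a tropomyosin, was at 41.4 to 92.4 CPM (median 68.2) in the long-term pools and 209, 210.2, 227 and 205 CPM in the short-term pools of Malign_0. Neither overlapped, and they fell with log2 fold changes of -1.22 ± 0.093 and -1.30 ± 0.17 in Malign_0 and -1.31 ± 0.12 and -1.23 ± 0.20 in Malign_1 (edgeR adjusted p = 1.2e-08, 4.0e-06, 5.2e-08 and 4.0e-05), beside non-malignant medians of 1.93 and 0.97. Acta2, smooth muscle actin, had 7 UMIs in short-term and 512 in long-term Malign_0, at 4.84 to 16.1 CPM in the long-term pools, against 756 CPM in all other cells of those pools.

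Of 19 immediate early genes, which respond to growth factors and stress within minutes, 4 rose and 2 fell of 18 tested in Malign_0, 4 rose and 3 fell of 19 in Malign_1, 2 fell in Malign_2 and 1 rose and 1 fell in Malign_3 (beside 4.42% and 7.19% of all genes tested there). The gene that rose in Malign_3 was Junb, an AP-1 subunit, whose call was lost without long-term pool 4 (0.94). The list had medians of 0.45, 0.49, -0.02 and 0.15, the last of which turned to -0.14 on library size alone. Without short-term pool 3, 1 fell in Malign_0. Fosb, an AP-1 subunit, was at 256 to 363 CPM (median 329.7) in the long-term pools and 1043, 1098, 1155 and 1120.2 CPM in the short-term pools of Malign_1. It fell without overlap in Malign_1, Malign_2 and Malign_3 (-1.45 ± 0.087, -1.82 ± 0.27 and -1.73 ± 0.17, edgeR adjusted p = 1.1e-09, 1.3e-05 and 4.3e-07), beside non-malignant medians of -2.10 and -1.04. Fosb was also called lower in Malign_0, at 15.1 to 24.5 CPM in the long-term pools and 65.3 to 90.5 CPM in the short-term pools. Its relative Fos was at 4427 to 7721 CPM (median 6243) in the long-term pools and 3093, 2910.3, 2971 and 3335 CPM in the short-term pools of Malign_1. Fos rose there without overlap (1.31 ± 0.17, edgeR adjusted p = 4.2e-06, non-malignant median 0.58), with 1.61 for long-term pools 1 to 4 and 0.95 for pools 5 to 8. Ier3, an early response gene against cell death, rose by 1.60 ± 0.098 in Malign_0 and 1.15 ± 0.075 in Malign_1 (edgeR adjusted p = 1.4e-09 and 2.5e-09, non-malignant median 0.22). Klf4, a transcription factor of epithelial differentiation and stem cells, was at 37.4 to 117 CPM (median 70.5) in the long-term pools and 255, 249.5, 235 and 207 CPM in the short-term pools of Malign_2. Here it fell without overlap (-1.41 ± 0.26, edgeR adjusted p = 1.3e-04, non-malignant median -0.20), and its fold change was -2.20 with long-term pools 1 to 4 and -0.86 with pools 5 to 8.

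Among 20 targets of p53, 1 rose and 1 fell of 18 tested in Malign_0, 1 rose and 4 fell of 18 in Malign_1 (beside 7.86% and 9.52% of all genes tested), 1 of 20 rose in Malign_2 and 1 of 20 fell in Malign_3, with medians of -0.27, -0.39, 0.00 and -0.10, of which that of Malign_2 was -0.31 on library size alone. Mdm2, the ubiquitin ligase that p53 induces and that removes p53, was at 105 to 184 CPM (median 137) in the long-term pools and 380.5, 443, 458 and 402 CPM in the short-term pools of Malign_1. It fell without overlap (-1.30 ± 0.098, edgeR adjusted p = 9.8e-09, non-malignant median -0.92), as did Ccng1, cyclin G1 (-1.20 ± 0.090, edgeR adjusted p = 1.0e-08, non-malignant median -0.67), and Plk2, a stress-induced kinase (-1.08 ± 0.096, edgeR adjusted p = 5.3e-08, non-malignant median -0.33). Of 12 heat shock genes, Hspb1, a small chaperone, rose in all 4 clusters (1.34 ± 0.090, 1.61 ± 0.15, 1.15 ± 0.062 and 1.01 ± 0.10, edgeR adjusted p = 3.3e-09, 7.1e-08, 8.7e-10 and 4.4e-07) beside larger non-malignant medians of 2.11 and 2.45, and Dnajb1 rose in Malign_1 (1.08 ± 0.11, edgeR adjusted p = 3.4e-07). The medians of that list were 0.19, 0.21, 0.43 and 0.28, and those of Malign_0, Malign_1 and Malign_3 turned to -0.18, -0.12 and -0.01 on library size alone. Of 18 genes of the unfolded protein and integrated stress response, 2 rose in Malign_0 and 2 rose and 1 fell in Malign_1 (over all genes tested, 8.83% rose in Malign_0, and 7.86% rose and 9.52% fell in Malign_1), and none of 17 was called in the T22 clusters. There 10 and 11 had an unadjusted and 9 and 11 an adjusted p under 0.05 in the edgeR test, and DESeq2 called 0 and 0. The medians were 0.51, 0.33, 0.13 and 0.31, and that of Malign_2 turned to -0.18 on library size alone. Chac1, a glutathione-degrading target of that response, was at 11.2 to 35.3 CPM (median 18.6) in the long-term pools and 7.36, 8.17, 6.32 and 6.94 CPM in the short-term pools of Malign_1. It rose without overlap in Malign_1 and Malign_0 (1.85 ± 0.20 and 2.03 ± 0.21, edgeR adjusted p = 5.1e-07 and 2.7e-07). The call of Hspb1 in Malign_3 was lost without long-term pool 1, 5 or 7 or short-term pool 3 (0.98 to 0.99). The non-malignant clusters had a median of 0.71 for Dnajb1 in the T127 captures.

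Fbxl13, which encodes an F-box protein of ubiquitin ligases, showed the largest decrease of all genes tested in both T22 clusters. It was at 0 to 0.604 CPM (median 0) in the long-term pools and 55.6, 70.9, 65.4 and 67.7 CPM in the short-term pools of Malign_2. In Malign_3 it was at 0 to 0.504 CPM (median 0) in the long-term pools and 43.7, 23.3, 18.3 and 38.2 CPM in the short-term pools. The groups were far apart in both clusters, with 3 UMIs in all long-term cells of Malign_2 against 3097 in short-term cells, and 1 against 171 UMIs in Malign_3. The ratio of short-term to long-term CPM was 509 in Malign_2 (95% interval 174 to 2469) and 515 in Malign_3 (95% interval 91.2 to 20452), by exact conditional binomial intervals that cover counting error only. The edgeR adjusted p was 6.6e-13 and 5.0e-09. In the T127 clusters Fbxl13 stayed at or under 1.08 CPM in every long-term pool and at or under 0.848 CPM in every short-term pool. Over all cells outside Malign_2 it was at 2.87 CPM in the short-term T22 pools and 0.726 CPM in the long-term pools.

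Among the other large changes in Malign_2, Mgp, an inhibitor of calcification of soft tissue, was at 188 to 300.3 CPM (median 227) in the long-term pools and 68.4, 74.6, 89.9 and 99.2 CPM in the short-term pools. Apod, a lipid-binding apolipoprotein, was at 497 to 1219 CPM (median 869) in the long-term pools and 396, 397, 424 and 445 CPM in the short-term pools. Both rose without overlap (1.80 ± 0.14 and 1.39 ± 0.23, edgeR adjusted p = 1.9e-08 and 4.6e-05), while their non-malignant medians were -0.94 (range -3.80 to -0.09) and 0.20. Calml3, a calmodulin-like protein of epithelia (1.44 ± 0.11), Wfdc3 (1.67 ± 0.17), Galk1, the galactokinase (1.39 ± 0.081), and Oaz1, the antizyme that limits polyamines (1.50 ± 0.23), rose too (edgeR adjusted p from 1.3e-09 to 1.9e-05), the last of these with near-identical copies in the genome that make its counts uncertain. Non-malignant medians were 1.19 for Galk1 and 1.24 for Oaz1. Igf2, an embryonic growth factor, was at 12.5 to 37.5 CPM (median 27.2) in the long-term pools and 81.1, 95.9, 91.5 and 67.3 CPM in the short-term pools of Malign_2. It fell without overlap (-1.39 ± 0.17, edgeR adjusted p = 2.3e-06), as did Lrp5, a Wnt co-receptor (-1.42 ± 0.11, edgeR adjusted p = 1.2e-08, non-malignant median -1.06), the adaptor gene Nck2 (-1.31 ± 0.097, edgeR adjusted p = 8.0e-09, non-malignant median -1.87) and the transcript AY036118 (-1.45 ± 0.24, edgeR adjusted p = 4.2e-05, non-malignant median -1.38).

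In Malign_3, Dbp, a transcription factor under the circadian clock, was at 41.8 to 79.5 CPM (median 53.4) in the long-term pools and 12.9, 12.6, 16.6 and 11.5 CPM in the short-term pools. Krt7, a keratin of simple epithelia, was at 943 to 1620.5 CPM (median 1367) in the long-term pools and 557, 662, 473 and 617 CPM in the short-term pools. Both rose without overlap (2.37 ± 0.19 and 1.49 ± 0.14, edgeR adjusted p = 7.9e-08 and 3.3e-07), with a non-malignant median of 0.95 for Dbp. Fxyd2, a regulator of the sodium pump (1.69 ± 0.23), the water channel gene Aqp5 (1.46 ± 0.18), Oaz1 (1.62 ± 0.24) and the tubulin gene Tuba1c (1.52 ± 0.18) rose as well (edgeR adjusted p from 2.1e-06 to 2.1e-05), with non-malignant medians of 1.56, 0.80, 1.24 and 1.36. The histone genes Hist1h2ak and Hist1h1e, made in S phase, fell with a log2 fold change of -2.92 ± 0.34 and -1.71 ± 0.28 (edgeR adjusted p = 1.7e-06 and 6.3e-05, non-malignant medians -1.91 and -0.95). Eppk1, the cytolinker epiplakin, was at 12.6 to 25.2 CPM (median 16.2) in the long-term pools and 63.1, 85.3, 88.0 and 80.8 CPM in the short-term pools. Its pools were apart and it fell (-1.83 ± 0.17, edgeR adjusted p = 2.0e-07), as did Mdn1, a ribosome assembly factor (-1.54 ± 0.15, edgeR adjusted p = 4.1e-07, non-malignant median -0.75), and Tmem245, a membrane protein gene (-1.60 ± 0.13, edgeR adjusted p = 1.0e-07, non-malignant median -0.88). Tsix, whose reads cannot be told apart from those of its antisense partner with certainty, was at -2.73 ± 0.25 (edgeR adjusted p = 2.1e-07, non-malignant median -2.33).

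Of 17 keratin and junction genes, 3 of 12 tested rose and 1 fell in Malign_0, 3 of 11 rose and 1 fell in Malign_1, 2 of 15 rose and 2 fell in Malign_2, and 3 of 17 rose and 1 fell in Malign_3. Over all genes tested, 7.97%, 9.52%, 3.76% and 7.19% were lower in Malign_0 to Malign_3. Without short-term pool 3, 4 rose and 2 fell in Malign_0 and 4 rose and 1 fell in Malign_1. In Malign_3, 1 of the 3 genes that rose lost its call without long-term pool 1, 5, 6 or 7 or short-term pool 1 or 3 of T22 (edgeR adjusted p = 0.052 to 0.17). The list had medians of 0.09, 0.13, 0.07 and 0.27 that turned to -0.28, -0.19, -0.25 and -0.01 on library size alone. Krt18, the simple epithelial keratin, was at 2573 to 3607 CPM (median 3060.2) in the long-term pools and 1585, 1748, 1303 and 1836 CPM in the short-term pools of Malign_3. It rose without overlap in Malign_3 and Malign_2 (1.18 ± 0.10 and 1.51 ± 0.17, edgeR adjusted p = 1.4e-07 and 6.1e-07), beside a larger non-malignant median of 2.22. Krt5, a keratin of basal cells, was at 0.972 to 6.58 CPM (median 3.47) in the long-term pools and 35.1, 15.3, 30.5 and 34.6 CPM in the short-term pools of Malign_3, where it fell with a log2 fold change of -2.91 ± 0.32 (edgeR adjusted p = 1.0e-06, non-malignant median -1.81), and it lay far higher in other cells of the short-term pools, at 539.7 CPM. Dsp, the desmosomal protein desmoplakin, fell with a log2 fold change of -1.10 ± 0.081 and its partner Pkp1 with -1.60 ± 0.19 in Malign_2 (edgeR adjusted p = 7.8e-09 and 1.2e-06), and Pkp1 fell in Malign_0 and Malign_1 too (-1.20 ± 0.13 and -1.28 ± 0.098, edgeR adjusted p = 4.8e-07 and 1.2e-08). The keratins Krt14 and Krt15 rose in the T127 clusters (1.71 ± 0.18 and 5.08 ± 0.43 in Malign_0, edgeR adjusted p = 2.9e-07 and 3.2e-08) at no more than 5.68 CPM in any pool of Malign_0, against 237 and 118 CPM over the other cells of the long-term pools. Non-malignant medians were 4.18 and 5.13 for Krt14 and Krt15 in the T127 captures and -1.51 for Dsp in the T22 captures.

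Of 19 regulators of the epithelial-mesenchymal transition (EMT) and cadherins, 1 rose of 11 in each T127 cluster, 2 rose and 1 fell of 12 in Malign_2, and 3 rose and 3 fell of 10 in Malign_3, beside 8.83%, 7.86%, 3.81% and 4.42% of all genes tested that rose and 7.97%, 9.52%, 3.76% and 7.19% that fell in Malign_0 to Malign_3. Without short-term pool 3, 1 rose and 1 fell in Malign_0. The only gene called in Malign_1 was Epcam, whose call was lost without long-term pool 4 or 6 or short-term pool 1 or 2 (edgeR adjusted p = 0.056 to 0.098). The gene that fell in Malign_2 was Esrp2, a splicing factor related to Esrp1, whose call was lost without long-term pool 4, 6 or 7 or short-term pool 3 or 4 (-0.87 to -0.99). The list had medians of -0.09, -0.19, -0.05 and 0.11, the last of which turned to -0.17 on library size alone. Cdh1, the epithelial E-cadherin, was at 81.6 to 147 CPM (median 112) in the long-term pools and 247, 359, 259 and 263 CPM in the short-term pools of Malign_3. Esrp1, a splicing factor of epithelial cells, was at 61.5 to 78.9 CPM (median 68.4) in the long-term pools and 167, 188, 166 and 176 CPM in the short-term pools. Both fell without overlap (-1.03 ± 0.14 and -1.06 ± 0.080, edgeR adjusted p = 8.3e-06 and 3.1e-08), with a non-malignant median of -0.94 for Cdh1. In Malign_2 Cdh1 stayed just inside the limit at -0.99 ± 0.072, with 56.6 to 82.0 CPM in the long-term and 154 to 166 CPM in the short-term pools. Fn1, the matrix protein fibronectin, rose by 5.03 ± 0.61 in Malign_2 and 2.48 ± 0.55 in Malign_3, the latter with overlapping pools (edgeR adjusted p = 1.9e-06 and 0.001), at 36.5 CPM in long-term Malign_2 against 1311 CPM in the other cells of those pools. S100a4, a calcium-binding protein of mesenchymal and myeloid cells, rose by 3.15 ± 0.61 in Malign_3 (edgeR adjusted p = 2.8e-04), with 73.4 CPM inside and 1826 CPM outside the cluster. The call of Cdh1 in Malign_3 was lost without long-term pool 2, 3 or 4 or short-term pool 2 (-0.90 at the smallest), and without short-term pool 1 the fold change of Fn1 there was 4.34. Non-malignant medians were 2.56 and -0.31 for Fn1 and S100a4 in the T22 captures.

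Of 15 genes of mammary lineage and milk, 1 of 4 tested rose in Malign_0, 1 of 4 rose and 1 fell in Malign_1, 2 of 9 rose in Malign_2, and 4 of 8 rose and 1 fell in Malign_3, with medians of -0.04, -0.34, 0.77 and 1.09. Among all genes tested, 8.83%, 7.86%, 3.81% and 4.42% rose in Malign_0 to Malign_3, and 9.52% and 7.19% fell in Malign_1 and Malign_3. Csn3, the milk protein kappa casein, was at 26.5 to 177 CPM (median 95.3) in the long-term pools and 19.4, 32.3, 10.5 and 39.9 CPM in the short-term pools of Malign_3. Prlr, the prolactin receptor, was at 1.77 to 42.0 CPM (median 19.8) in the long-term pools and 9.17, 0.898, 1.74 and 0.887 CPM in the short-term pools of Malign_3. Both overlapped between the groups and rose by 2.28 ± 0.49 and 2.57 ± 0.74 (edgeR adjusted p = 6.9e-04 and 0.0063). Csn2, beta casein, rose by 3.32 ± 0.79 in Malign_2 with overlapping pools (edgeR adjusted p = 0.0013), at 1.52 with long-term pools 1 to 4 and 4.17 with pools 5 to 8. Kit, the receptor tyrosine kinase of luminal progenitors, was at 111 to 241 CPM (median 171) in the long-term pools and 492, 524, 502 and 501 CPM in the short-term pools of Malign_3. It fell without overlap (-1.27 ± 0.15, edgeR adjusted p = 2.3e-06, non-malignant median -0.44). Without short-term pool 1 the fold change of Prlr was 4.23.

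Of 9 epithelial and fibroblast genes that also stand in other lists, among them Dcn and Acta2, with which the study assigned fibroblasts, 4 of 7 tested rose in Malign_0, 3 of 7 in Malign_1, 1 of 9 in Malign_2, and 2 of 9 rose and 1 fell in Malign_3 (beside 4.42% and 7.19% of all genes tested), with medians of 1.11, 0.53, 0.53 and 0.36. Epcam, the epithelial adhesion molecule, was at 861 to 1004 CPM (median 914) in the long-term pools and 735, 682, 844 and 742 CPM in the short-term pools of Malign_2. It was not called in Malign_2 or Malign_3 (0.60 ± 0.062 and 0.63 ± 0.064). In Malign_0 it rose with overlapping pools (2.24 ± 0.44, edgeR adjusted p = 2.3e-04) at no more than 5.68 CPM, against 354 CPM in the other cells of the long-term pools. Thinned to 3000 UMIs per cell, the median of this list in Malign_0 was -0.15, and without genes that are higher outside the cluster it was -0.18. Krt8, the partner of Krt18, was at -0.59 ± 0.069, -0.68 ± 0.079, 0.19 ± 0.078 and 0.39 ± 0.074 in Malign_0 to Malign_3, Cldn1, a tight junction protein, at -0.18 ± 0.076, -0.45 ± 0.12, 0.53 ± 0.21 and -0.71 ± 0.15, and none of these values was called, while Cdh1 was too low to be tested in T127. Acta2, Tagln and Pdpn were at 0.90 ± 0.15, 0.68 ± 0.17 and 0.22 ± 0.077 in Malign_2, the cluster in which they are highest, and were not called there. The non-malignant clusters had a median of 0.96 for Epcam in the T127 captures.

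Ribosomal protein genes rose in part in T127, and their medians were above 0 in the non-malignant cells too. Of 76 genes, 18 of 73 tested rose and 1 fell in Malign_0, 22 rose and 1 fell in Malign_1, 3 rose in Malign_2 and 1 rose in Malign_3, with medians of 0.54, 0.58, 0.42 and 0.33 and non-malignant medians of 0.64, 0.64, 0.14 and 0.14. Rps26, a small subunit protein, was at 4139 to 4494 CPM (median 4274) in the long-term pools and 2045, 1523, 1011 and 1934 CPM in the short-term pools of Malign_0. It rose without overlap (1.77 ± 0.15, edgeR adjusted p = 4.4e-08, non-malignant median 1.55), with short-term pool 3 the lowest. Summed over the list, that pool was the lowest of Malign_0 as well, at 111335 CPM against 127128 to 138775 CPM in the other short-term pools and 140834 to 152278 CPM in the long-term pools. Without it, 14 genes rose in Malign_0 and 17 in Malign_1, with medians of 0.47 and 0.49. Many pseudogene copies make the counts of single ribosomal protein genes uncertain. Of 13 mitochondrially encoded genes, 1 of 8 tested fell in Malign_0, 2 of 8 in Malign_1 and none in Malign_2 (8 tested) or Malign_3 (6 tested), with medians of -0.64, -0.78, -0.39 and -0.20. Among all genes tested, 7.97% fell in Malign_0 and 9.52% in Malign_1. For Malign_2 and Malign_3, 5 and 3 of the mitochondrially encoded genes had an unadjusted and 4 and 3 an adjusted p under 0.05 in the edgeR test, and DESeq2 called 0 and 0. mt-Nd2, a subunit of complex I, was at 1615 to 2672 CPM (median 2078) in the long-term pools and 5809, 5951, 6476 and 5887 CPM in the short-term pools of Malign_1 and fell without overlap (-1.20 ± 0.12, edgeR adjusted p = 3.0e-07, non-malignant median -0.78).

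**Figure D5:**
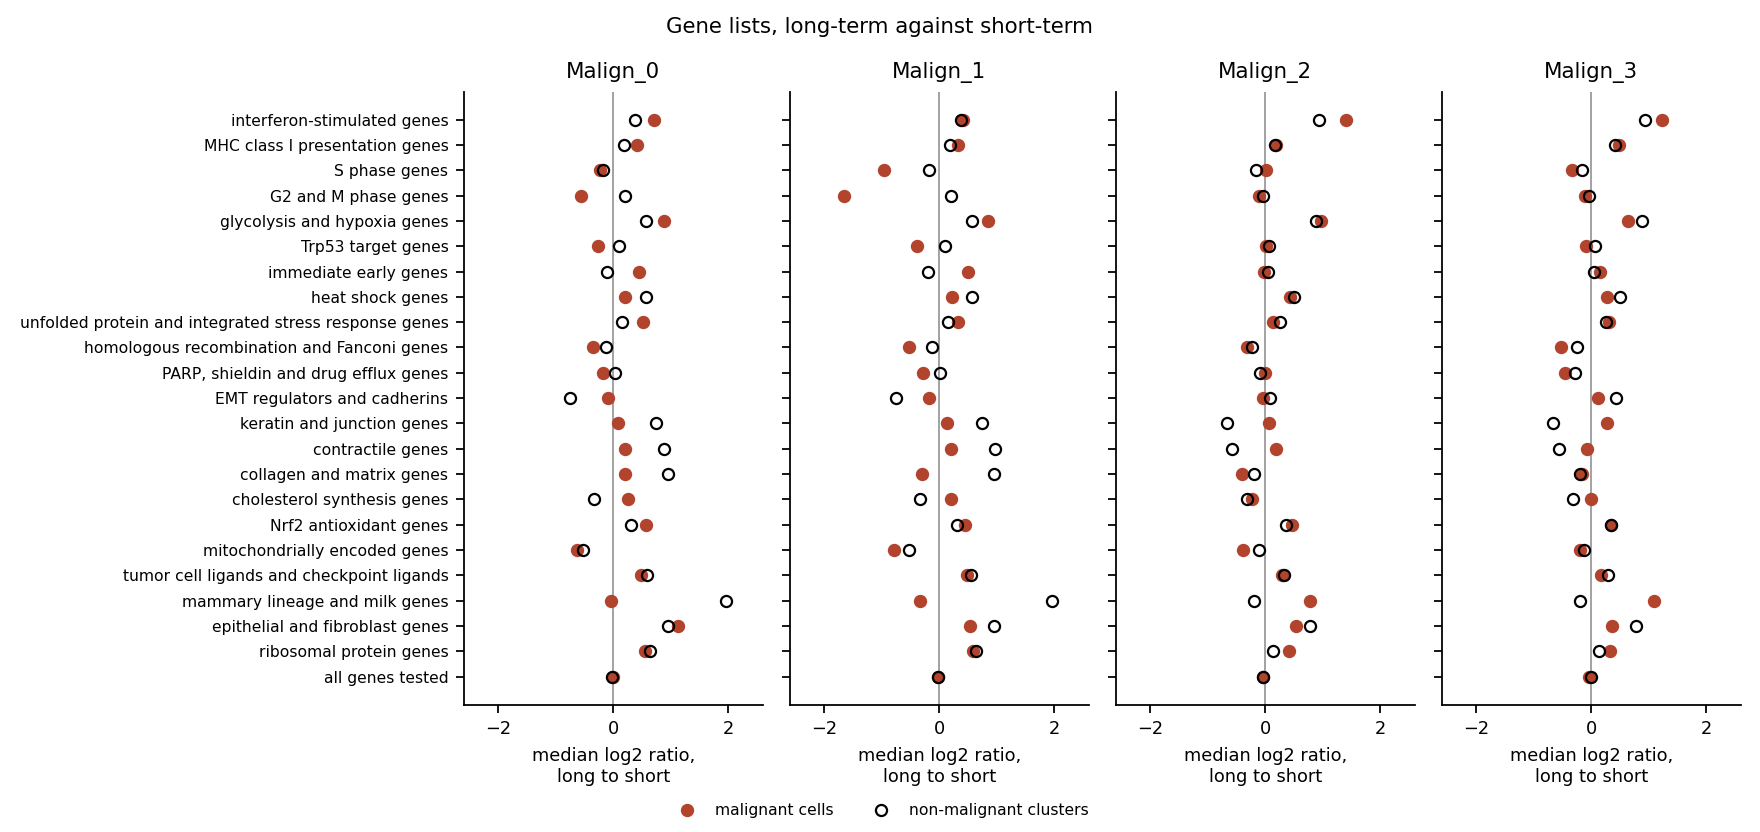
Median log2 ratio of long-term to short-term pools of each gene list in the malignant cluster (filled) and in the non-malignant clusters of the same captures (open). In Malign_1 the G2 and M phase genes lay at -1.66 beside 0.20 in non-malignant cells, while the glycolysis and hypoxia genes of Malign_2 lay at 0.97 beside 0.88.

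The long-term pools fell into 2 sets by their make-up. In pools 1 to 4, Malign_1 made up 31.2 to 34.2% of the malignant cells and Malign_0 32.4 to 35.2%, whereas in pools 5 to 8 the shares were 15.4 to 19.1% and 48.4 to 51.7%. Which tumors each set holds is not given in the labels. Taken alone against the same short-term pools, pools 1 to 4 gave 1215 higher and 1462 lower genes in Malign_0 and pools 5 to 8 gave 936 and 790. The corresponding counts were 1102 and 1438 against 739 and 893 in Malign_1, 601 and 843 against 405 and 475 in Malign_2, and 491 and 1101 against 285 and 472 in Malign_3.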

How the data were processed

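Single-cell RNA-seq of mixed mammary tumors was compared between 8 long-term and 4 short-term pools per model. Per the labels' processing notes, the authors used Cell Ranger 6.0.0 with the mouse build GRCm38, and the authors deposited, per pool, a table of UMI counts over 32285 genes, the cluster of each cell and normalized values. The normalized values were not used. Cluster names came from the authors' annotation, and the study removed doublets with Scrublet. Doublets were weighed here by leaving out the 5% of cells with the most UMIs and cells with a Ptprc UMI.

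Counts were summed per pool and cluster, and each shared long-term barcode was kept at its deepest copy. edgeR 4.0.16 (TMM, filterByExpr, quasi-likelihood test, R 4.3.3) compared the groups over all genes, with Benjamini-Hochberg adjustment. The rule for named genes took up to 8 higher and 8 lower genes per cluster with the largest fold change among called genes of at least 50 CPM that did not overlap between groups and were not higher outside the cluster, up to 4 called members of each gene list with the highest CPM, 9 epithelial and fibroblast genes, Lpar1, Parp1, Abcb1a and Abcb1b. A gene that this rule took in Malign_2 is not reported here. Non-malignant ratios used summed counts with a pseudocount of 1 CPM in clusters of at least 50 cells, for genes of at least 10 CPM, and their median needed 3 clusters.

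Alternatives were DESeq2 1.42.0, RLE factors, library size alone, no filter, the adjusted p alone, a replicate block, other handling of shared barcodes, cells thinned to 3000 UMIs, and single pools or genes of free RNA left out. The tests were checked on simulated data. The members and gene lists were chosen with earlier results of these data known.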

Additional observations from a re-analysis of the deposited data

Results flagged for a closer look

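Of 428 groups of 4 or 8 pools tested for the genes named in the text, 21 had 1 pool whose gap to the nearest other pool exceeded Dixon's 95% critical value, about the 1 in 20 that chance gives. The values are given without explanation.

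In Malign_0, short-term pool 4 had the lowest Cep250 at 55.8 CPM with the next at 57.4 CPM, and short-term pool 3 the highest Epcam at 2.38 CPM with the next at 0.475 CPM. Long-term pool 3 of Malign_0 had the lowest Hmmr at 17.7 CPM and the lowest Mki67 at 6.19 CPM, and long-term pool 2 the highest Uhrf1 at 13.9 CPM. In Malign_1, short-term pool 1 had the lowest Abcb1a at 28.3 CPM, with the next at 31.8 CPM.

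In Malign_2, short-term pool 3 had the lowest AY036118 at 933 CPM and long-term pool 7 the highest Cdh1 at 82.0 CPM. Long-term pool 6 had the highest Csn2 at 335 CPM with the next at 136 CPM, and the highest Fn1 at 134 CPM with the next at 37.7 CPM.

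In Malign_3, long-term pool 4 had the highest Fn1 at 88.2 CPM and the highest Fth1 at 9298 CPM, long-term pool 2 the lowest Fdps at 113 CPM, and long-term pool 8 the highest Mdn1 at 33.3 CPM and the only Fbxl13 UMI, at 0.504 CPM. Short-term pool 2 had the highest Cdh1 at 359 CPM, the highest Krt8 at 2048 CPM and the lowest Fth1 at 3941 CPM. Short-term pool 1 had the highest Fn1 at 21.6 CPM and the highest Prlr at 9.17 CPM, with the next at 3.59 and 1.74 CPM, and short-term pool 4 the highest Isg15 at 87.9 CPM with the next at 43.6 CPM.

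Col5a2, a fibrillar collagen gene, was the only named gene called in opposite directions in Malign_0 and Malign_2. The difference between the fold changes (Malign_2 minus Malign_0) was -4.22 ± 0.42 (edgeR adjusted p = 2.6e-08 in an interaction fit over 12819 genes that does not model the libraries shared by both clusters). The gene was taken for this test because of its opposite calls in the same counts, so the p-value adds no evidence beyond those calls. Its fold change was 3.05 in Malign_0 and -1.15 in Malign_2.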

How the results depend on the processing

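The directions in the counts depend on the scaling and the threshold. Long-term cells held fewer UMIs, so genes of low level in the long-term pools rest on few UMIs, and no capture separates time from batch. With the adjusted p alone, 4248 genes were higher and 4449 lower in Malign_0, 4037 and 4215 in Malign_1, 3645 and 3914 in Malign_2, and 2781 and 2850 in Malign_3. With library size alone the counts were 489 and 2420, 430 and 2293, 152 and 1504, and 166 and 1611 in the same order. With no filter on low counts they were 1818 and 1663 in Malign_0, 1602 and 1813 in Malign_1, 790 and 1142 in Malign_2, and 784 and 933 in Malign_3. With cells thinned to 3000 UMIs they were 581 and 696, 486 and 823, 205 and 432, and 147 and 379 in Malign_0 to Malign_3. Lower genes thus outnumbered higher genes in every cluster with thinned cells. Without genes that are higher outside the cluster the counts were 378 and 468, 257 and 413, 142 and 205, and 129 and 322. The cause was not tested, except that the last alternative tests fewer genes and the thinned one fewer UMIs.

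Leaving out 1 pool gave 950 to 1075 higher and 846 to 970 lower genes in Malign_0, 765 to 927 and 960 to 1089 in Malign_1, 372 to 459 and 386 to 460 in Malign_2, and 359 to 495 and 620 to 801 in Malign_3. The main fits did not pair pools by their number. The correlation of same-numbered pools ranged from -0.048 to 0.159, but it was not set against pools of different number, so it cannot exclude a pairing. With pool number as a replicate block, 664 genes were lower in Malign_2 and 1085 in Malign_3, and the block leaves only long-term pools that share a number with a short-term pool to inform the contrast.

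The following were chosen after seeing the data. Less the non-malignant median, 208 and 54, 148 and 125, 57 and 11, and 86 and 38 genes were past the limits. Only called genes with a non-malignant median could be assessed, which were 760 and 540, 650 and 653, 334 and 245, and 349 and 538. With long-term pools 1 to 4 alone, 1462, 843 and 1101 genes were lower in Malign_0, Malign_2 and Malign_3. With the clusters of a model merged, T22 had 905 higher and 959 lower genes.

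Of 7506 values of 299 named gene results under the alternatives, 7119 kept their direction and side of the threshold, 342 lost the call, 26 gained it and 19 changed sign, the last in 7 results that were not called. A result whose gene an alternative did not test has no value there and is not counted as lost. Without genes that are higher outside the cluster, only 124 of the 299 results had a value. That alternative keeps the main fold changes and repeats only the adjustment, so its 124 unchanged values add no support. Krt18 was at -0.15 in Malign_0 and -0.19 in Malign_1 with library size alone, and in Malign_1 at -0.0046 with the block and -0.0074 with pools 1 to 4. In Malign_2, Abcb1b was at -0.18 with library size alone, -0.16 with the block, -0.16 with pools 1 to 4 and, leaving out 1 pool, between -0.023 and 0.22, and Dcn, Krt8 and Pdpn were at -0.016, -0.13 and -0.095 with library size alone. Tagln in Malign_3 was at 0.0080 with no filter, 0.24 with the block, 0.20 with pools 1 to 4, and, leaving out 1 pool, between -0.50 and 1.02, positive without long-term pool 2, 3, 7 or 8 or short-term pool 2.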
